A study of Mus musculus with 6 samples.

Results

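The E proteins and their Id inhibitors were examined in haematopoietic stem and progenitor cells, as 8 genes chosen by family, with earlier results of these arrays known: the E protein genes Tcf3, Tcf4 and Tcf12, the Id genes Id1, Id2, Id3 and Id4, and Lyl1. Every probe set that the platform annotation gives to 1 of these genes alone was taken, which made 23 probe sets of 45037 on the array and 8 genes of the 18193 that could be read. All 8 genes had at least 1 such probe set, and none was left out for a low value.

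The cells were LSK cells, which lack lineage markers and carry Sca1 and c-Kit, sorted from bone marrow. The donors were IkL/L or WT mice on the C57BL/6 background, aged 6 to 7 weeks, with 3 arrays per genotype. IkL/L mice are homozygous for a hypomorphic allele of Ikzf1, the gene of the zinc finger protein Ikaros, so they retain some Ikaros and are no null. Each IkL/L sample pooled 2 mice and each WT sample came from 1 mouse, so the number of mice cannot be told apart from genotype. The comparison asks which of these regulators differ in expression between IkL/L and WT progenitors, before the cells enter the thymus.

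E proteins are basic helix-loop-helix (bHLH) transcription factors that bind E box DNA as dimers and drive the first steps of the B and T lineages. Id proteins carry the helix-loop-helix without the DNA-binding basic part, so that an E protein paired with an Id protein cannot bind DNA. Lyl1 is a bHLH protein of blood progenitors that, like its close relative Tal1, binds DNA as a partner of an E protein.

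All values are log2 values made by robust multi-array average (RMA), which are relative brightness and not molecule counts, and a difference is the IkL/L mean minus the WT mean. A probe set was called when its p in limma, adjusted over all 45037 probe sets by the Benjamini-Hochberg method, was under 0.05. A gene was read from its brightest probe set. For the members and Ikzf1 the other probe sets are given beside it, and for other genes only in part. In such bulk samples, fewer cells of a type and less RNA per cell cannot be told apart. Levels of different probe sets were not compared with each other, since each has its own response.

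The arrays correlated at 0.986 to 0.995 over all probe sets, and no pair was identical. The first principal component (39.3% of the variance) put the IkL/L arrays at 19.6 to 28.0 and set WT 2, at -52.7, apart from the other WT arrays, at -18.6 and 3.60. Transcripts of Ikzf1, which carries the mutation, were lower in IkL/L cells, at 10.85 ± 0.08 against 11.53 ± 0.08 in WT cells (log2 values, SD, n = 3 each; difference -0.68, adjusted p = 0.0307, limma), and the dimmer Ikzf1 probe set differed by -0.21 (adjusted p = 0.622). The call on the brighter one was lost without any array but WT 3 (adjusted p 0.0436 to 0.157 over the 6 fits). Kit, which encodes c-Kit, was above the array median on all 6 arrays, as were the 7 other measured stem and progenitor genes. None of the 8 was called in limma and 4 had an unadjusted p under 0.05. Of these, Procr was higher in IkL/L cells, with groups that overlapped (difference 0.69, adjusted p = 0.409, limma). The others, Ptprc (CD45), Mecom and Hlf, had lower values on every IkL/L array than on any WT array (differences -0.22, -0.47 and -0.59, adjusted p = 0.555, 0.328 and 0.447). Over all genes, 17.2% had groups that did not overlap. Ly6a, which encodes Sca1, was not analysed here.

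Id2 was the member that changed, and it was 1.99-fold higher in IkL/L cells. The gene lies at chr12:25093799-25096092 in GRCm38.p6, and its protein restrains E proteins in innate lymphoid, natural killer and dendritic cells. The promoter of Id2 is shown beside that of Id3, a family member that showed no called difference, with 250 bases before the transcription start from RefSeq (GRCm38.p6), 5′ to 3′ on the strand of the gene. Id2 is at chr12:25096093-25096342 on the minus strand and Id3 at chr4:136143572-136143821 on the plus strand. The capitals mark every match to 4 motifs searched on both strands: the E box CANNTG, its E protein form CAGGTG (itself a CANNTG), the Ikaros core TGGGAA and the SMAD site GGCGCC.
Id2: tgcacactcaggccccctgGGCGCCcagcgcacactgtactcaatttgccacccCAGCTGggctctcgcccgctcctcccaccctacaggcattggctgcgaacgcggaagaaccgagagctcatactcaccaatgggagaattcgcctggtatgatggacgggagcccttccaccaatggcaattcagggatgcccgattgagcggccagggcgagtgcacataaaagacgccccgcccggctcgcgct
Id3: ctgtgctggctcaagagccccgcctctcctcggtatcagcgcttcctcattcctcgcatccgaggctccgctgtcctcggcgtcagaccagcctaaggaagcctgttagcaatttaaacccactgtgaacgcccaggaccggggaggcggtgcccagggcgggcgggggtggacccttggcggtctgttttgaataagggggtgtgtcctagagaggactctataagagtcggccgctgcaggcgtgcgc
The Id2 stretch held 1 E box, CAGCTG, starting 196 bases before the start, and 1 GGCGCC, starting 231 bases before it. The Id3 stretch held none of the 4 motifs. Over the 32851 promoter stretches of the same length in the RefSeq table, 66.2% held a CANNTG, 17.2% a CAGGTG, 21.6% a TGGGAA and 9.59% a GGCGCC, so that an E box alone is common. In the other member promoters searched, Id4 held a GGCGCC at 148 bases and a TGGGAA at 245 bases before its start, Lyl1 a CACCTG (the reverse complement of CAGGTG) at 235 bases, and Tcf3 a CACTTG at 54 bases. Of the 3 alternative Tcf12 stretches, 1 held a CAAGTG, 1 a CAGCTG and 1 no match. These are letter matches only and no binding was measured. The promoters of Id1 and Tcf4 were not analysed here.

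The brightest Id2 probe set, 1435176_a_at, read 7.08, 7.42 and 7.25 on the IkL/L arrays, against 6.17, 6.10 and 6.49 on the WT arrays (log2 values). Every IkL/L array lay above every WT array, and the lowest IkL/L array was still above WT 3, the highest WT array. The means were 7.25 ± 0.17 in IkL/L cells and 6.26 ± 0.21 in WT cells (SD, n = 3 each), a difference of 0.99 with a 95% interval of 0.67 to 1.32. That is a fold of 1.99, with an interval of 1.59 to 2.49 and an adjusted p of 0.0297 in limma.

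The call on Id2 was fragile, while its difference stayed between 0.91 and 1.11 when 1 array was left out. Its direction could not turn in these fits, since the groups did not overlap. Leaving out IkL/L 1, IkL/L 2, IkL/L 3, WT 1 or WT 2 gave differences of 1.08, 0.91, 1.00, 0.95 and 0.92 in that order of arrays, with adjusted p of 0.0854, 0.101, 0.0896, 0.158 and 0.0774 in limma, none of which passed. Without WT 3, the WT array nearest to the IkL/L arrays, the difference was 1.11 with an adjusted p of 0.0222.

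The other Id2 probe sets did not show this difference. Probe set 1422537_a_at averaged 4.61 ± 0.07 in IkL/L cells and 4.35 ± 0.27 in WT cells, a difference of 0.26 (95% interval -0.07 to 0.59, adjusted p = 0.677, limma). Probe set 1453596_at averaged 3.92 ± 0.12 in IkL/L cells and 3.93 ± 0.17 in WT cells, a difference of -0.02 (95% interval -0.30 to 0.26, adjusted p = 0.979, limma). Both were at or below the median of all probe sets on all 6 arrays, where RMA values cannot be told from background, so the Id2 result rests on 1 probe set. With the mean over its 3 probe sets as the value of the gene, the difference was 0.41 and was not called (adjusted p = 0.137).

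The genes whose level followed that of Id2 most closely over the 6 arrays, among the 9096 genes at or above the median level, were Tmem205, Ndrg1 and Exoc3l2, with Pearson r of 0.997, 0.989 and 0.987. They are given as a description, since the arrays fall into the same genotypes that differ in Id2 and share 1 normalization. Ndrg1, a gene induced by hypoxia and differentiation, was at 11.37 ± 0.19 in IkL/L cells and 10.67 ± 0.13 in WT cells, a difference of 0.70 that was not called (adjusted p = 0.0724, limma). Tmem205 and Exoc3l2 differed by 0.50 and 0.83 with adjusted p of 0.131 and 0.0803.

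Id1, the family member best known as a target of BMP signalling, had a single probe set that was dim. It read 5.04, 4.71 and 4.95 on the IkL/L arrays, against 4.53, 4.73 and 4.26 on the WT arrays. The groups overlapped, since IkL/L 2 was just under WT 2, and the level was near the array medians of 4.79 to 4.88. The means were 4.90 ± 0.17 in IkL/L cells and 4.50 ± 0.24 in WT cells, a difference of 0.40 (95% interval 0.06 to 0.73, adjusted p = 0.469, limma), and the call was not made.

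Id3, which antigen receptor signals induce in thymocytes, was dim in both genotypes. Its single probe set read 4.18, 4.20 and 3.86 on the IkL/L arrays, against 4.28, 4.02 and 4.01 on the WT arrays. The groups overlapped and every value was below its array median. The means were 4.08 ± 0.19 in IkL/L cells and 4.10 ± 0.15 in WT cells, a difference of -0.03 (95% interval -0.33 to 0.28, adjusted p = 0.975, limma). Id4, best known from neural and mammary cells, was below the array medians on all 6 arrays with each of its 3 probe sets, whose differences were -0.07, -0.03 and 0.17 with adjusted p of 0.881, 0.965 and 0.786. For Id3 and Id4 these low readings do not show that the genes were silent.

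**Figure D1:**
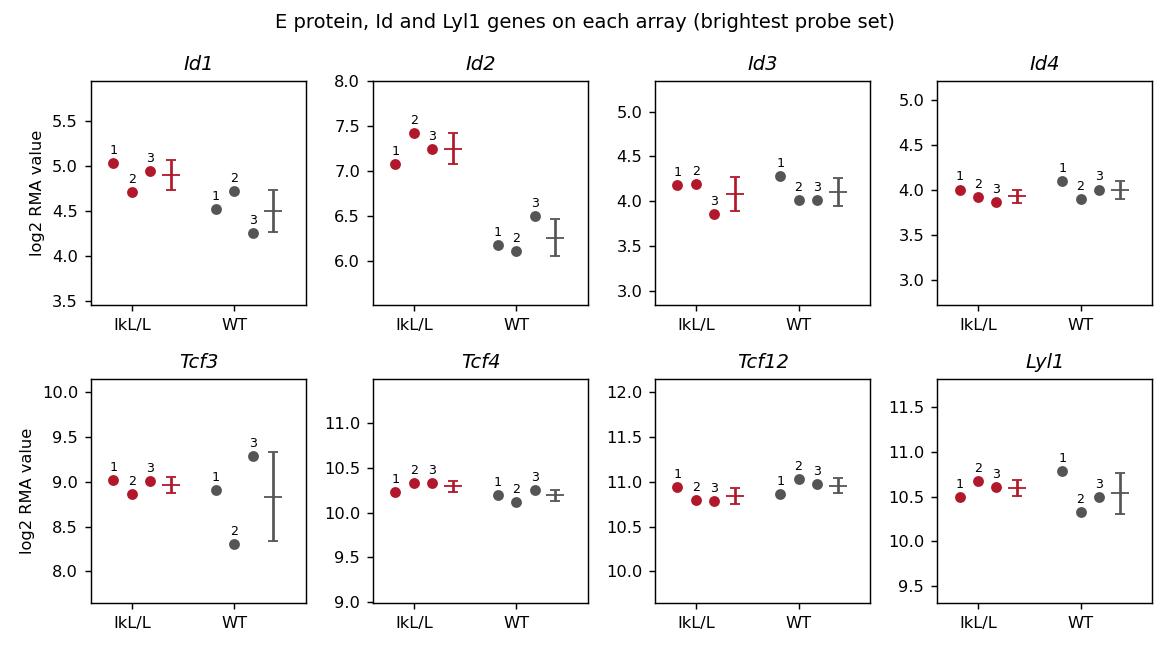
RMA level (log2) of the brightest probe set of each of the 8 genes on the 3 IkL/L and 3 WT arrays, numbered by replicate, with the mean and SD of each group. The axes span the same number of log2 units but start at different levels. The Id2 arrays separate by genotype, with IkL/L at 7.08 to 7.42 and WT at 6.10 to 6.49, while in the other 7 genes the groups overlap.

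The E protein genes showed no called difference between the genotypes. None of their 14 probe sets was called, the differences ran from -0.12 to 0.37, 0 had an unadjusted p under 0.05 and the lowest adjusted p was 0.647 in limma. Of the 14, 11 were above the array median on all 6 arrays. At the brightest probe set of each gene, the 95% intervals allowed a fold of 0.766 to 1.57 for Tcf3, 0.927 to 1.25 for Tcf4 and 0.787 to 1.08 for Tcf12.

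Tcf3 encodes the E12 and E47 forms of E2A, which are needed to start the B lineage and keep the lymphoid potential of multipotent progenitors. Its brightest probe set, 1426297_at, read 9.02, 8.86 and 9.01 on the IkL/L arrays, against 8.90, 8.30 and 9.29 on the WT arrays. The WT arrays spread over 0.987 and the IkL/L arrays over 0.161, and the IkL/L values all lay inside the WT range. The means were 8.97 ± 0.09 in IkL/L cells and 8.83 ± 0.50 in WT cells, a difference of 0.13 (95% interval -0.38 to 0.65, adjusted p = 0.909, limma).

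WT 2 was the lowest of the 6 arrays on all 3 Tcf3 probe sets. Without it the difference turned negative at 1426297_at (-0.13) and at 1452542_x_at (-0.19) and stayed positive at 1427764_a_at (0.02). Probe set 1427764_a_at read 6.15, 6.32 and 6.82 on the IkL/L arrays, against 6.09, 5.37 and 6.71 on the WT arrays, a difference of 0.37 (95% interval -0.38 to 1.11, adjusted p = 0.808, limma). The difference at the dim probe set 1452542_x_at was 0.07 (adjusted p = 0.957).

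Tcf4 encodes E2-2, the E protein that plasmacytoid dendritic cells depend on. Its brightest probe set, 1416723_at, read 10.22, 10.33 and 10.32 on the IkL/L arrays, against 10.20, 10.12 and 10.25 on the WT arrays. The groups were narrow and overlapped only through IkL/L 1 and WT 3. The means were 10.29 ± 0.06 in IkL/L cells and 10.19 ± 0.06 in WT cells, a difference of 0.10 (95% interval -0.11 to 0.32, adjusted p = 0.812, limma). All 6 Tcf4 probe sets had differences above 0 and none was called. The larger ones were 0.32 at 1416724_x_at (adjusted p = 0.647) and 0.32 at 1424089_a_at (adjusted p = 0.660), and WT 2 was the lowest array on both. At 1434149_at WT 2 was instead the highest array, at 7.63, with WT 1 the lowest, at 6.17, and the 3 IkL/L arrays between 6.98 and 7.09.

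Tcf12 encodes HEB, the E protein that thymocytes use alongside E2A. Its brightest probe set, 1427670_a_at, read 10.94, 10.80 and 10.78 on the IkL/L arrays, against 10.86, 11.03 and 10.98 on the WT arrays. IkL/L 2 and 3 were below all WT arrays and IkL/L 1 was not. The means were 10.84 ± 0.09 in IkL/L cells and 10.96 ± 0.09 in WT cells, a difference of -0.12 (95% interval -0.35 to 0.11, adjusted p = 0.800, limma). The other 4 Tcf12 probe sets had differences of 0.09, -0.01, -0.08 and -0.07, with adjusted p of 0.838, 0.996, 0.886 and 0.932. The probe sets of 1 gene thus did not share a sign.

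Lyl1, whose protein needs an E protein partner and is required for lymphoid specification of progenitors, was bright on its single probe set. It read 10.50, 10.67 and 10.61 on the IkL/L arrays, against 10.78, 10.33 and 10.50 on the WT arrays. All 3 IkL/L values lay within the WT range. The means were 10.59 ± 0.09 in IkL/L cells and 10.54 ± 0.23 in WT cells, a difference of 0.06 (95% interval -0.25 to 0.36, adjusted p = 0.937, limma). Without WT 2, the lowest array, the difference was -0.05.

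**Figure D2:**
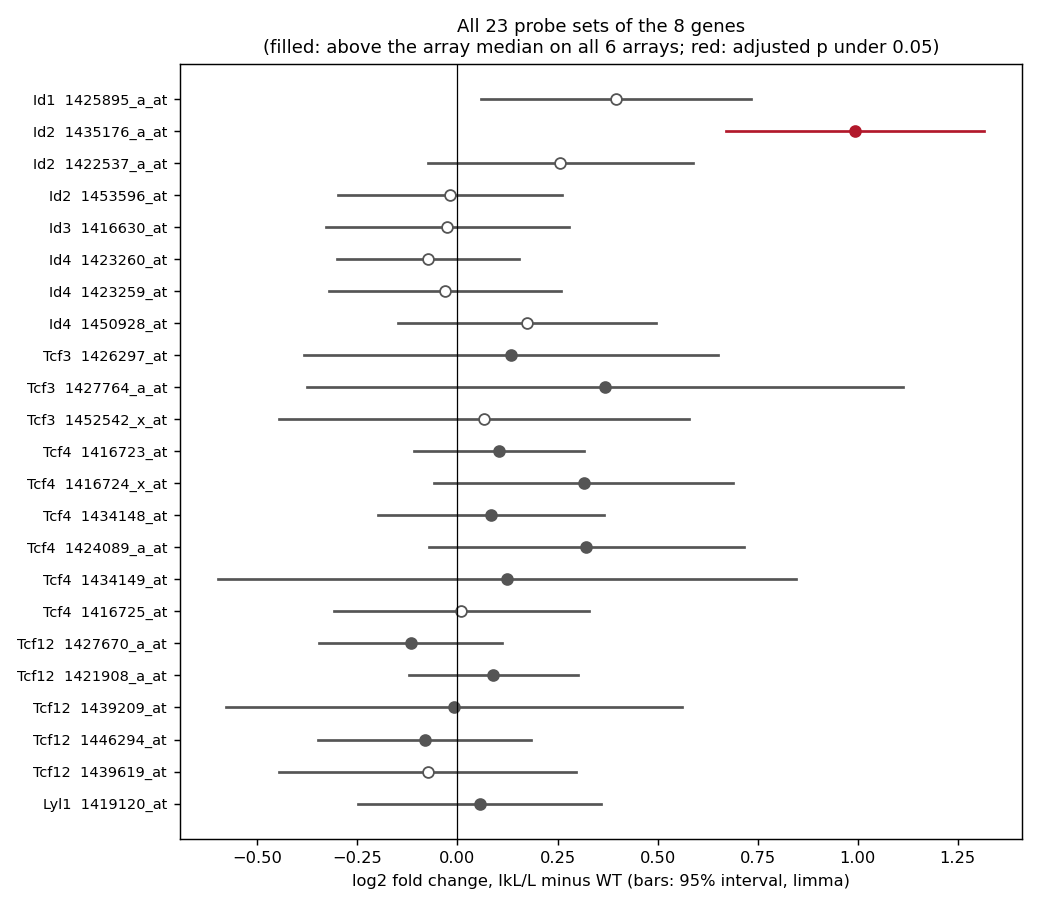
Difference in log2 RMA level, IkL/L minus WT, for all 23 probe sets of the 8 genes, with 95% intervals from limma. Filled points are above the array median on all 6 arrays, and red marks the single called probe set, 1435176_a_at of Id2 at 0.99; the other 22 lie between -0.12 and 0.40.

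Counted over the family, 1 of 23 probe sets was called higher and 0 lower, where 0.424% of all probe sets on the array were called higher and 0.133% lower. Groups did not overlap in 1 of the 23, which is 4.35%, against 14.4% of all probe sets. By gene, 1 of 8 was called higher and 0 lower, where 0.748% of all 18193 genes were called higher and 0.242% lower, and 17.2% of all genes had groups that did not overlap. An unadjusted p under 0.05 was reached by 2 of the 8 genes, Id1 and Id2, against 11.2% of all genes in either direction. The median difference was 0.08 over the 23 probe sets and -0.02 over all genes.

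Genes that E proteins act on in lymphoid cells held calls in both directions. Of the 18 target genes listed, 17 were measured. The list was chosen with earlier results of these data known, so its shares are a description and no test. Vpreb1 was called higher and Rag2 was called lower, where 0.748% of all genes were called higher and 0.242% lower. In 12 of the 17 the groups did not overlap, 3 higher and 9 lower in IkL/L cells, against the 17.2% of all genes above. The median difference over the 17 was -0.22, and 10 had an unadjusted p under 0.05, against the 11.2% of all genes.

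Vpreb1, a part of the surrogate light chain of the pre-B-cell receptor, read 7.60, 7.86 and 7.75 on the IkL/L arrays, against 6.37, 6.40 and 6.30 on the WT arrays. The groups were far apart, with a difference of 1.38 (fold 2.61, adjusted p = 0.00274, limma), and this call was kept without each array in turn. Igll1, the other part of that light chain, and Cd79b, a signalling chain of the B-cell receptor, also lay higher on all IkL/L arrays, with differences of 0.53 (adjusted p = 0.117) and 0.40 (adjusted p = 0.388), neither of which passed.

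Rag2, a subunit of the recombinase that cuts antigen receptor genes, read 4.81, 4.79 and 4.57 on the IkL/L arrays, against 5.92, 6.04 and 5.60 on the WT arrays. The IkL/L values were at or under their array medians and the WT values above theirs. No fold is given, since the IkL/L values cannot be told from background. The difference in RMA values was -1.13 (adjusted p = 0.0167, limma), and the call was lost without IkL/L 1, IkL/L 2, IkL/L 3 or WT 1, at adjusted p of 0.0835, 0.0604, 0.0548 and 0.106. Its partner Rag1 was dim, with a difference of -0.75 (adjusted p = 0.100).

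The remaining target genes did not pass. Dntt, the template-free polymerase of early lymphoid progenitors, was at 11.65 ± 0.15 in IkL/L cells and 12.44 ± 0.19 in WT cells, a difference of -0.78 just outside the threshold (adjusted p = 0.0532, limma). The receptors Flt3, Il7r, Ccr9 and Notch1 had lower values on every IkL/L array than on any WT array, with differences of -0.88, -1.33, -1.47 and -0.41 and adjusted p of 0.132, 0.241, 0.208 and 0.122. Il7r and Ccr9 spread widely within genotypes, with WT 3 lowest of the WT arrays for Il7r and WT 2 for Ccr9. On IkL/L 1 and IkL/L 3, Ccr9 was below the array median, where values cannot be told from background. Il7r, Ccr9 and Notch1 have other probe sets, which are not given here.

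**Figure D3:**
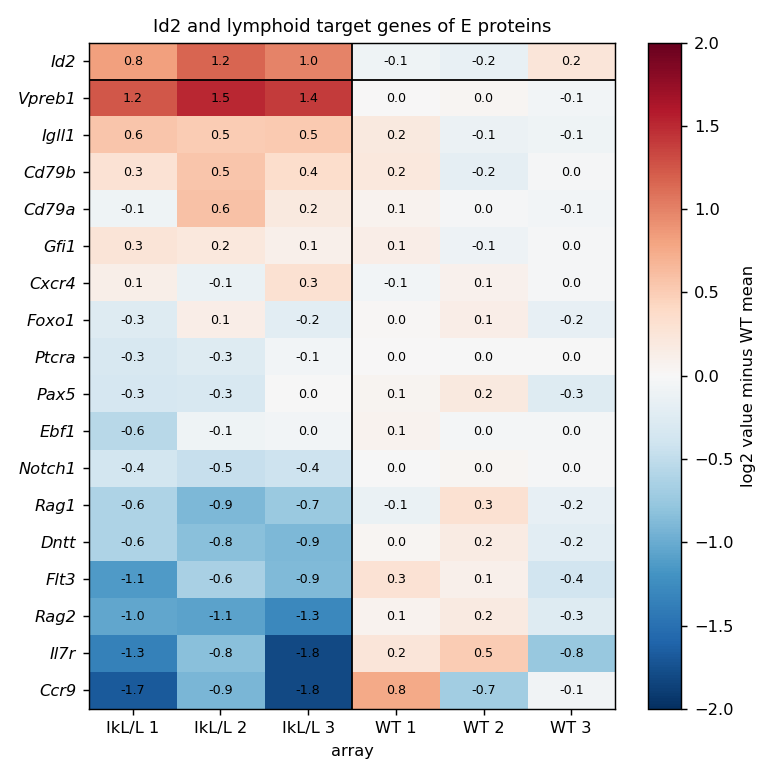
Log2 RMA level minus the WT mean for Id2 and the 17 measured lymphoid target genes of E proteins, by array, with the 3 IkL/L arrays left of the 3 WT arrays (red higher, blue lower). Id2 and Vpreb1 are high on all 3 IkL/L arrays, and Rag2, Dntt, Rag1, Flt3, Il7r, Ccr9 and Notch1 are low on all 3.

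The cell cycle genes under E protein control had no call. Of 10 measured, 0 were called in limma, 0 had an unadjusted p under 0.05 and 0 had groups that did not overlap. The smallest p belonged to Ccnd3 (cyclin D3, difference 0.33), Mycn (-0.27) and Cdkn2c (the inhibitor p18, -0.23), with adjusted p of 0.701 to 0.785.

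The partners of E proteins were likewise not called. In the complex that Lyl1 or Tal1 forms with Lmo2, Ldb1 and GATA factors, all 11 genes were measured and 0 were called in limma, with 2 at an unadjusted p under 0.05. Groups did not overlap in 3 genes that were higher and 3 that were lower in IkL/L cells, against 17.2% of all genes. Gata1, the erythroid and megakaryocytic GATA factor, differed by 0.61 (adjusted p = 0.398), the adaptors Ssbp3 and Ssbp2 by -0.30 and -0.21 (adjusted p = 0.377 and 0.602). Of 12 other bHLH partners, 9 were at or below the array medians and 0 were called, with 2 at an unadjusted p under 0.05. Tcf15, a bHLH factor also found in stem cells, had the smallest p of them, at 6.41 ± 0.25 in IkL/L cells and 5.78 ± 0.19 in WT cells (difference 0.62, adjusted p = 0.200, limma).

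Coregulators and competitors of E proteins gave the same count of 0 calls. Among 8 coregulators, 1 had an unadjusted p under 0.05, the acetyltransferase gene Ep300, at 9.34 ± 0.06 in IkL/L cells and 9.71 ± 0.10 in WT cells (difference -0.37, adjusted p = 0.237, limma). Its paralogue Crebbp differed by -0.16 and the corepressor Cbfa2t2 by -0.15. The other Crebbp probe sets differed by 0.59, -0.19 and 0.68 and those of Cbfa2t2 by 0.21 and -0.40, none of them called. Among 7 repressors that bind E boxes, 3 had an unadjusted p under 0.05. Groups did not overlap in 2 that were higher and 2 that were lower in IkL/L cells, against 17.2% of all genes. Zeb2 and Bhlhe40 lay higher on all IkL/L arrays (0.52 and 0.38) and Zeb1 lower (-0.34), with adjusted p of 0.468, 0.442 and 0.415. The dimmer probe sets ran from -0.08 to 0.46 for Zeb2 and from -0.10 to 0.17 for Zeb1.

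Genes that act on the Id genes or their proteins were not called either. In BMP and TGF-beta signalling, which acts on Id transcription through SMAD proteins, 0 of 16 were called in limma and 3 had an unadjusted p under 0.05, all lower. These were the inhibitor Smad7 (-0.49, adjusted p = 0.289), the ubiquitin ligase Smurf1 (-0.23, adjusted p = 0.509) and Smad3 (-0.26, adjusted p = 0.564). Of 10 other regulators, 0 were called and 1, the repressor Gfi1b (0.34, adjusted p = 0.470), had an unadjusted p under 0.05.

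Klf4, a Krüppel-like factor, and Egr1, an early-response gene that can induce Id3, had groups that overlapped and were not called (adjusted p = 0.630 and 0.715, limma). Klf4 read 7.66, 8.85 and 5.93 on the IkL/L arrays, against 5.89, 6.38 and 6.40 on the WT arrays, so that its IkL/L arrays spread widely. Both genes were highest on IkL/L 2, which was also the highest array for Id2, and a link between them and Id2 was not tested. Of the 8 genes for turnover of Id and E proteins, 0 were called and 0 had an unadjusted p under 0.05, with the ubiquitin ligase parts Fzr1, Cdc20 and Skp2 at 0.36, 0.14 and 0.16. Over the 9 lists together, 99 of 104 genes were measured and the median difference was 0.01. Of the 99, 1 was called higher and 1 lower, where 0.748% of all genes were called higher and 0.242% lower.

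**Figure D4:**
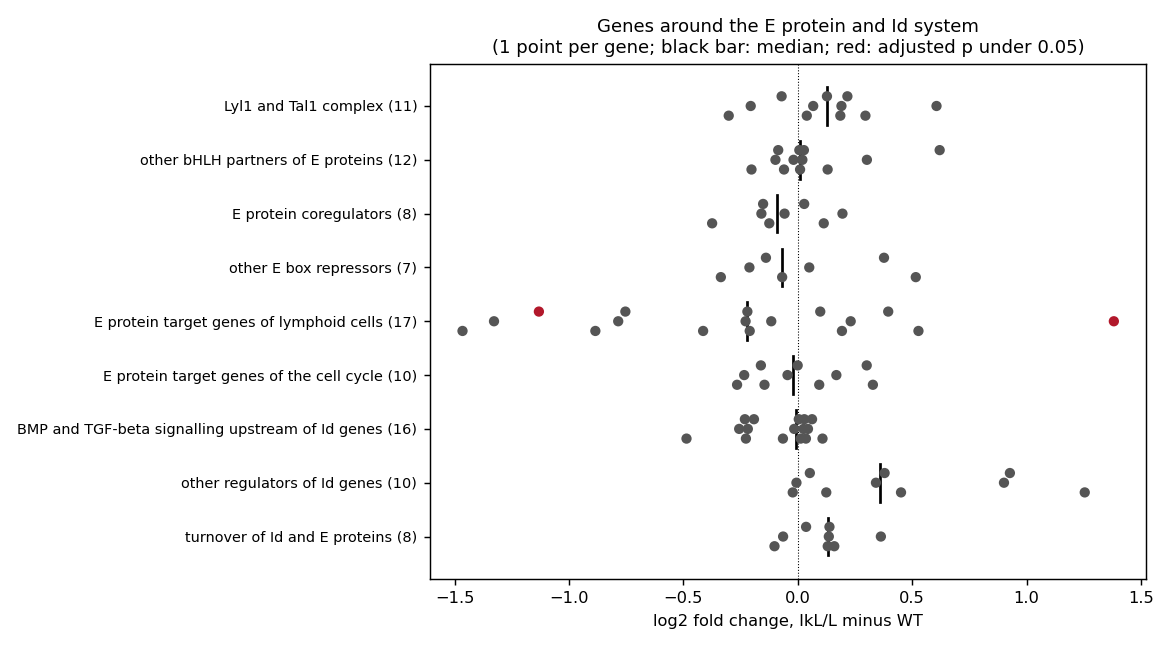
Difference in log2 RMA level, IkL/L minus WT, for each measured gene of the 9 lists around the E protein and Id system, with the number measured in brackets and a bar at the median. The lymphoid target genes spread from -1.47 to 1.38 and hold both called genes (red, Rag2 and Vpreb1), while the cell cycle targets stay between -0.27 and 0.33.

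Id2 is expressed by natural killer and innate lymphoid cells, and their transcripts were read on the same arrays, as were those of other mature cells. The lineage depletion used antibodies to B220, CD11b, Gr1 and Ter119, and LSK cells were then sorted from what remained. For natural killer and innate lymphoid cells, 0 of 6 genes were called in limma and 0 had an unadjusted p under 0.05. Of the 6, 4, among them the defining Ncr1 and Il2rb, were at or below the array medians on all 6 arrays. The mean level of the list ran from 4.56 to 4.82 on the IkL/L arrays and from 4.45 to 4.72 on the WT arrays. For plasmacytoid dendritic cells 0 of 7 were called and 3 had an unadjusted p under 0.05, 2 higher and 1 lower in IkL/L cells. Groups did not overlap in 3 genes that were higher and 1 that was lower, against 17.2% of all genes. The mean of this list thus joins genes that differed in both directions. It ranged from 6.45 to 6.69 in IkL/L and from 6.24 to 6.51 in WT, with overlap.

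Mean levels of 4 other lineage lists were higher on all IkL/L arrays, as Id2 was, and their part in the Id2 difference was not tested. Mean levels did not overlap for myeloid genes, at 8.93 to 9.36 in IkL/L and 7.97 to 8.34 in WT, erythroid genes, at 7.81 to 8.24 in IkL/L and 7.34 to 7.42 in WT, B-lineage genes, at 4.68 to 5.13 in IkL/L and 4.24 to 4.44 in WT, and T-lineage genes, at 5.07 to 5.11 in IkL/L and 4.80 to 4.86 in WT. Of 64 measured marker genes, 4 were called higher and 0 lower, where 0.748% of all genes were called higher and 0.242% lower. They were Elane (neutrophil elastase), Ms4a1 (CD20), Thy1 and Cdh5 (VE-cadherin), with adjusted p of 0.0312, 0.0165, 0.0223 and 0.00274 in limma. The folds of Elane and Thy1 were 4.46 and 2.82. Ms4a1 averaged 5.78 ± 0.66 in IkL/L cells and 3.40 ± 0.12 in WT cells, and Cdh5 6.33 ± 0.35 in IkL/L cells and 3.82 ± 0.20 in WT cells. Their WT values were below the array medians and cannot be told from background, so no fold is given. The dimmer probe sets of Cdh5 and Ms4a1 differed by 0.19 and 1.83 and were not called (adjusted p = 0.719 and 0.135, limma). The call on Cdh5 was kept without each array in turn. That on Elane was lost without IkL/L 1, IkL/L 3, WT 1 or WT 2, that on Ms4a1 without IkL/L 1 or WT 1, and that on Thy1 without IkL/L 1, WT 1 or WT 2, with adjusted p of up to 0.166, 0.106 and 0.119 in that order of genes. In the T-lineage list, 3 of 7 genes were at or below the array medians.

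Single genes carried some of these separations, as means without the called gene showed, a choice made after the values were seen. Without Thy1 the T-lineage means overlapped, at 4.57 to 4.65 in IkL/L and 4.51 to 4.63 in WT, and Cd3g, Cd8a and Cd2 had differences below 0. Without Ms4a1 the B-lineage means overlapped, at 4.58 to 4.86 in IkL/L and 4.42 to 4.67 in WT, and Pax5 and Fcrla had differences below 0. Without Elane the myeloid means stayed apart, at 8.66 to 9.18 in IkL/L and 7.98 to 8.38 in WT. The means of the megakaryocyte and stem cell lists overlapped. Those of the stromal and endothelial list overlapped with Cdh5 and were lower in IkL/L without it, at 5.18 to 5.52 in IkL/L and 5.65 to 6.58 in WT. The median difference of that list was -0.76 with 6 of 9 genes below 0, among them Col1a1, a collagen gene of stroma (-1.43, adjusted p = 0.302, limma). Col1a1 was below the array medians on all IkL/L arrays and on WT 3, where values cannot be told from background.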

How the data were processed

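LSK cells of 3 IkL/L and 3 WT samples were profiled on Affymetrix mouse genome arrays, from 100 ng of total RNA per the labels. The deposited table holds log2 values from RMA. This method corrects background, brings all arrays to nearly the same distribution and condenses each probe set into 1 value, without a detection call. The submitters' processing notes name R 2.8. The study's methods state a joint normalization with thymocyte arrays, and whether the deposited values stem from it was not tested.

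Gene names came from the platform annotation of the probe sets (34945 with 1 gene, 932 with several, 9160 not listed), with symbols updated by Entrez number from a RefSeq gene table of GRCm38.p6 for 34741 of them. IkL/L and WT were compared over all 45037 probe sets with limma 3.58.1 (lmFit and eBayes, with genotype as sole term, two-sided p and Benjamini-Hochberg adjustment at a threshold of 0.05) in R 4.3.3, after a test on simulated data. The number of arrays limits the precision, and the p-values rest on how 3 samples per genotype vary.

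The members and the gene lists were chosen with earlier results of these data known. Pax5, Cd79a, Ccr9, Gata1 and Gata3 stand in a pathway list and also in a marker list. Named were all members with every probe set, the 3 genes of each pathway list with the smallest p, called marker genes, and the 3 genes most correlated with Id2. Ikzf1, the markers Kit, Procr, Ptprc, Mecom, Hlf, Ncr1, Il2rb, Cd3g, Cd8a, Cd2, Pax5, Fcrla and Col1a1, and the target genes Rag1, Igll1, Cd79b, Flt3, Il7r, Ccr9 and Notch1 were named outside this rule, after their values were seen. Alternatives were a second quantile normalization, median centring, 2 filters against dim probe sets, a trend of variance with intensity, array weights, the replicate number as a block, the mean over probe sets, and leaving out each array.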

Additional observations from a re-analysis of the deposited data

How the results depend on the processing

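Id2 stayed higher in IkL/L cells under all 14 alternatives run. The dim filters, the intensity trend and the replicate block cannot change its difference, and leaving out an array cannot turn its sign. It was called in 6 of the 8 alternatives that kept every array. Of the 6 that left one out, Id2 was called in 1 (log2 differences 0.906 to 1.11, adjusted p 0.0222 to 0.158, limma). With the mean over probe sets its difference was 0.410 and with the replicate block it was 0.994 at an adjusted p of 0.0759, so that 0 members were called in either, and 0 to 1 when an array was left out. Deviations of same-numbered arrays correlated at 0.00840, -0.112 and 0.0789, and those of differently numbered arrays at -0.129 to 0.120. With 3 arrays per genotype these values cannot decide whether the replicate numbers pair the samples. The block left 143 probe sets called of all. That count was 57 to 287 when an array was left out. The members that were not called changed sign easily. Id3 became 0.00261 after a second quantile normalization (-0.0841 to 0.0852 without an array), Id4 0.0234 with the mean over probe sets, Lyl1 -0.0322 with array weights (-0.0460 to 0.178 without an array), and Tcf3 lay between -0.131 and 0.362 without an array. The same held for single probe sets. Id2 1453596_at was 0.00754 after a second quantile normalization and -0.118 to 0.0476 without an array. Tcf12 1439209_at was 0.0887 with array weights, 0.00764 with median centring and -0.282 to 0.241 without an array, and Tcf3 1452542_x_at was -0.0452 with array weights and -0.193 to 0.250 without an array. Without an array, Id4 1423259_at ranged from -0.104 to 0.0574, Tcf12 1439619_at from -0.207 to 0.0859, Tcf12 1446294_at from -0.158 to 0.0172, Tcf4 1416725_at from -0.0985 to 0.0957 and Tcf4 1434149_at from -0.250 to 0.479. With the mean over probe sets, Crebbp was 0.231 and Smad3 0.0323. Pathway genes called were 4 with the mean over probe sets, 1 with a mean level of at least 6 and 1 to 5 without an array. Marker genes called were 10 with the mean over probe sets, 7 with array weights, 7 with an intensity trend and 1 to 9 without an array. Causes were not tested. Dntt passed under 4 of the alternatives that kept every array, and Rag2 under all 7 that kept it. The replicate block also removed the calls on Ikzf1 and Thy1.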
